A study of Homo sapiens with 12 samples.

Results

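The genes described here were ATF4, the central transcription factor of the integrated stress response, and 9 genes known as its partners or targets (ATF5, DDIT3, CEBPB, CHAC1, TRIB3, DDIT4, ASNS, PSAT1 and PHGDH). They were taken by symbol from a table of 60583 genes, and all 10 were found; 9 had enough reads to be tested, and ASNS had not. Nascent RNA, the RNA that cells are in the course of making, was captured by TT-seq, a brief labelling with a thiol-bearing uridine followed by pull-down and sequencing of the labelled RNA, from human U2OS osteosarcoma cells, with 3 libraries in each of 4 groups. U2OS siCtrl and U2OS siINTS11 were U2OS cells transfected with a control siRNA or with an siRNA against INTS11, the catalytic endonuclease subunit of the Integrator complex. U2OS-AsiSI siCtrl and U2OS-AsiSI siINTS11 had the same transfections in U2OS cells whose genotype is AsiSI-ER, with a treatment given as OHT for 1 h. AsiSI-ER is a restriction enzyme fused to an estrogen receptor domain, and OHT brings such a fusion into the nucleus, where it cuts DNA. All 4 groups were U2OS cells transfected with an siRNA and harvested after 48 h, and the study asked how loss of INTS11 changes transcription by RNA polymerase II. The labels give OHT for the U2OS-AsiSI groups and no treatment for the U2OS groups, so line and OHT cannot be told apart. No label says that the 3 libraries of a group came from separate cultures, so p-values here measure only the spread between these libraries, which may be technical.

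In the integrated stress response, kinases that sense amino acid shortage, misfolded protein in the endoplasmic reticulum, viral RNA or heme shortage phosphorylate the initiation factor eIF2. Bulk translation then slows, while the ATF4 messenger RNA, whose upstream reading frames normally hold it back, is translated more, so much of the control of ATF4 lies after transcription. ATF4 protein pairs with C/EBP family factors on composite promoter elements, and the genes it activates serve amino acid synthesis and uptake, redox balance and, when stress persists, growth arrest and cell death.

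The composite element has the core TGATGNAA, which was searched for on both strands of RefSeq promoters (GRCh38.p14, 250 bases before to 50 after an annotated start). It occurred in 3.62% of 35116 promoters and in at least 1 promoter of 4.46% of 27305 genes, and CHAC1 and ASNS were the members, 2 of 10, that held it. The full CREB/ATF palindrome TGACGTCA, whose letters cannot overlap those of the core, was searched for in the same way and occurred in 1.85% of promoters and in no member's. The 2 matching stretches are shown because CHAC1 had the largest change of all members and ASNS could not be measured, beside 3 from aminoacyl-tRNA synthetase genes, of which 7 of the 10 with a promoter entry held the core. Each is 28 bases, read 5′ to 3′ on the strand that carries the core, with the core in capitals. They lie at chr15:40953252-40953279 (CHAC1), chr7:97872459-97872486 (ASNS), chr16:70289676-70289703 (AARS1), chr7:30594835-30594862 (GARS1) and chr9:92293693-92293720 (IARS1).
CHAC1: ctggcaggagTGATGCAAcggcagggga
ASNS: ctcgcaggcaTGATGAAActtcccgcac
AARS1: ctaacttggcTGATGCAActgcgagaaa
GARS1: gctcggagcaTGATGAAAtcgccgcgta
IARS1: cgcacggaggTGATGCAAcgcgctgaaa
In ASNS the core lies on the gene's own strand and ends 60 bases before the start, and in CHAC1 it lies on the opposite strand and ends 201 bases before it. The span in which CHAC1 reads were counted begins 509 bases before that RefSeq start and so takes in this stretch. CHAC1 and DDIT4 were the members with the largest changes, so the 250 bases before their starts are printed on the gene's strand, at chr15:40953221-40953470 for CHAC1 and chr10:72273674-72273923 for DDIT4, both on the plus strand. The capitals in CHAC1 mark the same core, read from the other strand; DDIT4 had no match in this window, which says only that these letters are not in it.
CHAC1: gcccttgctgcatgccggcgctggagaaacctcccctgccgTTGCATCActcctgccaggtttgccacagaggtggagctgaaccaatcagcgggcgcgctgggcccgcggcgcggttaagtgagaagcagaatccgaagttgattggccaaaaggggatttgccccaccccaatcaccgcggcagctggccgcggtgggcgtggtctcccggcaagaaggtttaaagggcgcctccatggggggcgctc
DDIT4: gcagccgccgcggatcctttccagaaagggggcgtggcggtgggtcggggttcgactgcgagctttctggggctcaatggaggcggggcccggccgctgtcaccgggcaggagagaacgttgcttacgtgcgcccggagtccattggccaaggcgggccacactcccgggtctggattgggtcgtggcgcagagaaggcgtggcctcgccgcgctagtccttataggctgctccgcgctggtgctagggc

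Libraries held 20704611 to 38065726 reads, and the 3 of U2OS-AsiSI siINTS11 were the smallest (20704611 to 26579035). The counts take in exons and introns alike and are given raw or as CPM (counts scaled to a common library size by TMM, edgeR's trimmed mean method), so every fold change is relative to the other genes of a library. INTS11 itself had 277, 314 and 286 reads under siCtrl and 260, 216 and 225 under siINTS11 in U2OS. That fall was called by edgeR, with -0.42 on the log2 scale (SE 0.09, adjusted p = 6.08e-05). In U2OS-AsiSI it was not called (-0.13, SE 0.08, edgeR adjusted p = 0.172), so there it does not check the labels; nascent reads do not measure the mature transcript an siRNA acts on. The bone and mesenchymal genes RUNX2, SPARC, COL1A1, VIM and ALPL were read in all libraries. COL1A2 had 13 reads or fewer and SP7 10 or fewer. BGLAP was listed at 0, and all of its 1134 bases are overlapped by another gene on its strand, so its count measures nothing. In sum these 8 genes fell under siINTS11, from 896 to 944 CPM down to 650 to 696 in U2OS. In U2OS-AsiSI they fell from 771 to 783 down to 582 to 640. Of the 5 tested, 1 rose and 3 fell in U2OS, and 2 rose and 2 fell in U2OS-AsiSI. RUNX2 and COL1A1 fell in both lines. With libraries scaled by their totals alone, COL1A1 was not called in U2OS-AsiSI (-0.07, edgeR adjusted p = 0.235). ALPL rose from 3.08 to 8.69 CPM in U2OS and from 4.64 to 11.5 in U2OS-AsiSI. Of 8 markers of epithelial, blood, endothelial and glial cells, CD3E, KRT19 and PTPRC stayed at 7 reads or fewer. The other 5 were tested, and 5 in U2OS and 3 in U2OS-AsiSI rose under siINTS11, as did 34.5% and 35.4% of all genes tested. Summed, these 8 markers of other cell types went from 16.3 to 18 CPM up to 26.1 to 28 in U2OS. In U2OS-AsiSI they went from 16.0 to 16.6 up to 23.4 to 25.1. From low levels, PECAM1 went from 0.959 to 3.06 CPM in U2OS and from 0.846 to 3.15 in U2OS-AsiSI. GFAP went from 0.256 to 1.27 and from 0.389 to 1.92, and VWF from 4.77 to 8.68 and from 4.17 to 6.97. The part of these markers in the results below was not tested. All libraries were bulk RNA of U2OS cells, so a rise of these markers is no count of cells of another type.

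Of the 9 tested members, 8 rose under siINTS11 in each line. CHAC1 rose most, to about 2.4 times its control level, followed by DDIT4 and CEBPB. The exceptions were ATF4 in U2OS and PSAT1 in U2OS-AsiSI, which were not called in those lines. In U2OS the median log2 fold change of the 9 was 0.55, against 0.02 over the 20687 genes tested, of which 34.5% rose and 66.9% were called in either direction. In U2OS-AsiSI the median was 0.52 against 0.03 over 20441 genes, of which 35.4% rose and 68.0% were called in either direction. Under siINTS11 the share of genes that rose differed with gene length: among protein-coding genes under 10 kb it was 37.7% in U2OS and 47.9% in U2OS-AsiSI, and among longer ones 26.3% and 25.1%. Of the 9 tested members, 6 span under 10 kb, and the other 3 (TRIB3, PSAT1 and PHGDH) are longer; the part of length in the members' changes was not tested. With libraries scaled by their totals alone, the median over the genes tested went from 0.02 to 0.22 in U2OS and from 0.03 to 0.22 in U2OS-AsiSI. The numbers of genes that rose and fell then went from 7140 and 6706 to 10968 and 3799 in U2OS and from 7236 and 6657 to 10550 and 4024 in U2OS-AsiSI, and all 9 members were called higher in both lines. For the 8 members called in each line, the scaled siINTS11 libraries lay above the scaled siCtrl libraries, as for 38.2% of all genes tested in U2OS and 36.4% in U2OS-AsiSI. In raw reads 8 members did so in U2OS, as did 31.3% of genes, and 5 in U2OS-AsiSI, as did 19.9%.

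**Figure D1:**
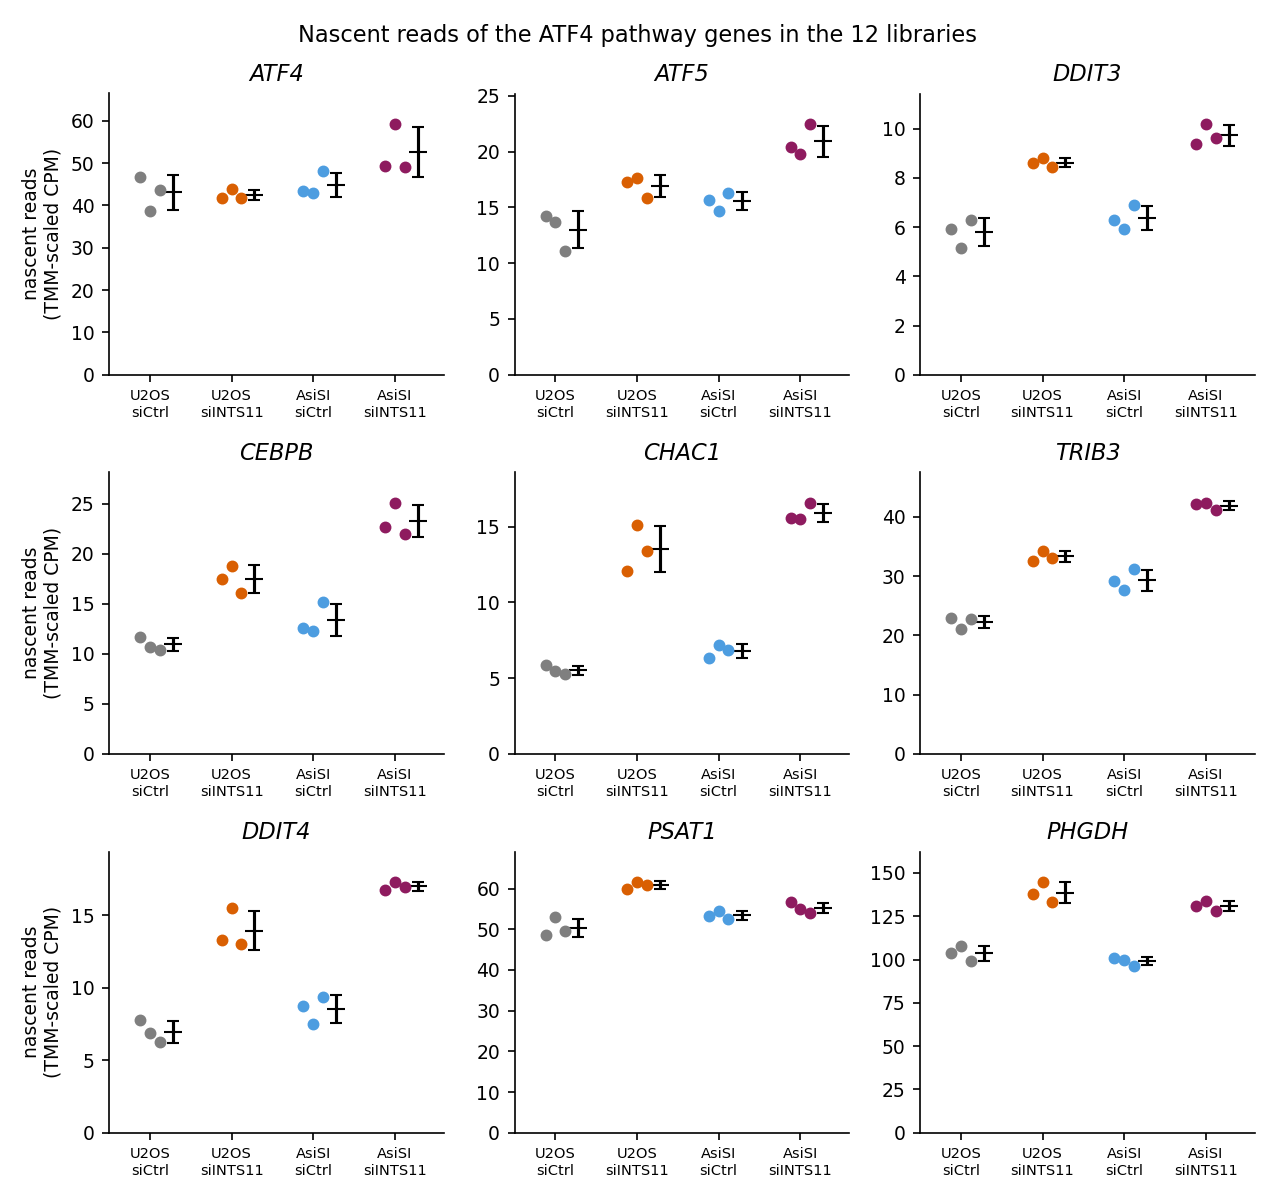
Nascent reads in CPM (y axis, from 0, a separate scale per gene) of the 9 tested members in each library (points) of the 4 groups, with the group mean and SD (bars) to the right. CHAC1, DDIT4, CEBPB, DDIT3, TRIB3, ATF5 and PHGDH lie higher in every siINTS11 library than in every siCtrl library of the same line, ATF4 overlaps in U2OS and PSAT1 overlaps in U2OS-AsiSI.

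ATF4 (chr22:39519695-39522685, plus strand, 2.99 kb) was the member with the most reads per base, with a log2 fold change that was the smallest of the 9 in U2OS and the smallest of the 8 called in U2OS-AsiSI. In U2OS it had 1284, 1369 and 1239 reads under siCtrl and 1383, 1338 and 1305 under siINTS11. In U2OS-AsiSI it had 1278, 1371 and 1319 reads under siCtrl and 1409, 1347 and 1432 under siINTS11. The raw counts of all 12 libraries thus lay between 1239 and 1432, and in both lines the siCtrl and siINTS11 libraries overlapped. Scaled, U2OS gave 43.1 ± 4.07 and 42.4 ± 1.18 CPM (SD, n = 3), a log2 fold change of -0.05 that was not called (SE 0.05, edgeR adjusted p = 0.450). U2OS-AsiSI gave 44.8 ± 2.92 and 52.5 ± 5.88 CPM, with no overlap between the scaled libraries, and ATF4 was called with 0.23 on the log2 scale (SE 0.06, edgeR adjusted p = 0.0015). Without replicate 2 of U2OS-AsiSI siINTS11, which at 59.3 CPM was the highest and had the smallest total, that value was 0.14 (edgeR adjusted p = 0.0351).

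The raw reads of ATF4 moved little with library size. Over the 12 libraries, within groups, the slope of its log count on the log library total was 0.25 (SE 0.09), where a gene that scales with its library has a slope near 1 and the median of 13557 genes with a mean of at least 100 reads was 1.03. ATF4 held 0.448 reads per base. CEBPB (slope 0.46, SE 0.26; 0.258 reads per base) and DDIT4 (0.59, SE 0.32; 0.161) were the other members above 0.1 reads per base, while PHGDH, at 0.0365 reads per base, had a slope of 1.05 (SE 0.15). Low slopes were not limited to dense genes: that of DDIT3 was 0.46 (SE 0.14) at 0.094 reads per base and that of TRIB3 0.70 (SE 0.10) at 0.0268. The slopes of ATF5 (1.09, SE 0.35), CHAC1 (0.93, SE 0.30) and PSAT1 (1.18, SE 0.09) were near 1 or above. Of all genes above 0.1 reads per base, 32.2% rose in U2OS and 47.3% in U2OS-AsiSI; the part of read density and library size in the ATF4 value was not tested.

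**Figure D2:**
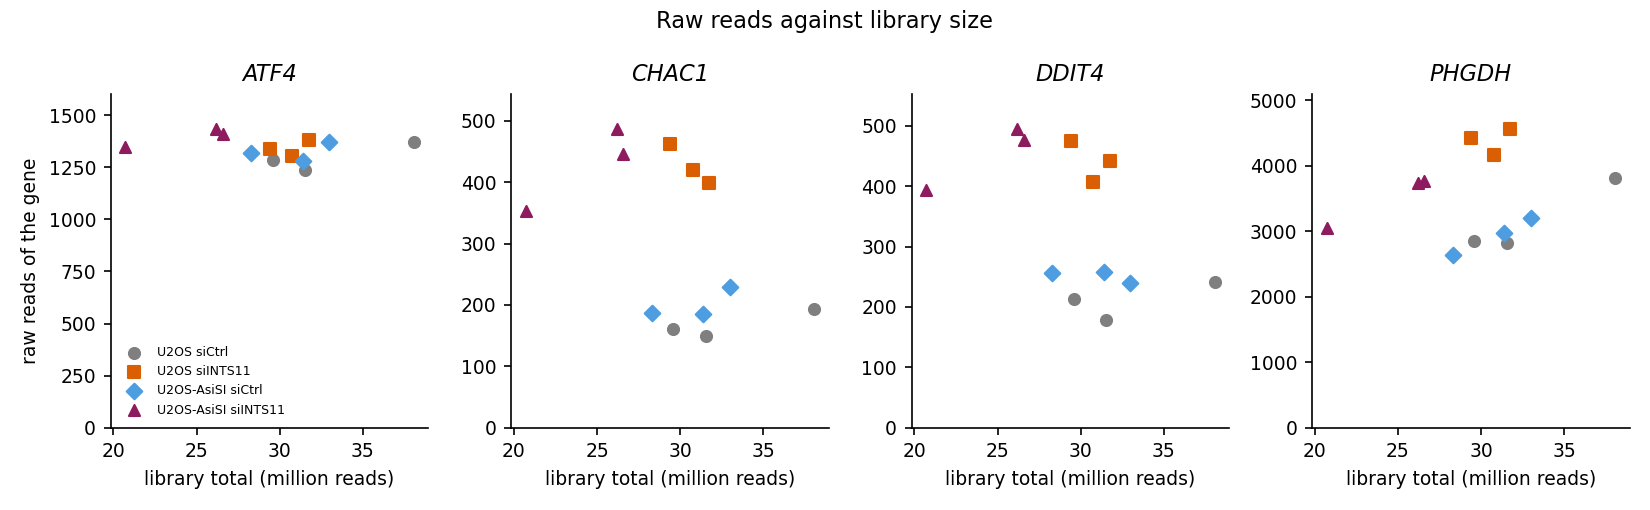
Raw reads of ATF4, CHAC1, DDIT4 and PHGDH (y axes, from 0) against library total (x axis, in units of 1e6 reads), with 1 point per library and a marker per group. ATF4 stays between 1239 and 1432 reads at every library size, while CHAC1 and DDIT4 have more reads in every siINTS11 library than in any siCtrl library.

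The other 3 transcription factors rose in both lines. ATF5 (chr19:49928702-49933935, plus strand), a relative of ATF4 that is also under translational control, went from 391, 484 and 315 reads to 572, 538 and 494 in U2OS, which did not overlap. In U2OS-AsiSI the raw reads (462, 469 and 447 against 585, 450 and 658) overlapped, and the scaled levels, 15.6 ± 0.826 and 20.9 ± 1.42 CPM (SD, n = 3), did not. Its log2 fold changes were 0.34 in U2OS (SE 0.08, edgeR adjusted p = 0.000161) and 0.44 in U2OS-AsiSI (SE 0.07, edgeR adjusted p = 1.43e-06). DDIT3 (chr12:57516588-57521737, minus strand) encodes CHOP, which ties prolonged stress to cell death. It had 163, 182 and 178 reads under siCtrl and 285, 269 and 264 under siINTS11 in U2OS. In U2OS-AsiSI it had 185, 189 and 189 under siCtrl and 268, 232 and 281 under siINTS11. In both lines every siINTS11 library was above every siCtrl library, and the log2 fold changes were 0.55 (SE 0.09, edgeR adjusted p = 1.69e-06) and 0.62 (SE 0.09, edgeR adjusted p = 5.75e-07). Another gene on the same strand overlaps 2769 of the 5150 bases of DDIT3, where reads could be shared or dropped.

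CEBPB (chr20:50190830-50192668, plus strand), an intronless gene for a C/EBP factor that can pair with ATF4, had larger log2 fold changes than the other 3 factors in both lines. It had 322, 377 and 296 reads under siCtrl and 580, 576 and 503 under siINTS11 in U2OS. In U2OS-AsiSI it had 372, 393 and 415 under siCtrl and 651, 571 and 643 under siINTS11. These raw counts did not overlap in either line. The U2OS-AsiSI siINTS11 libraries were the smallest, and the part of library size was not tested. The log2 fold changes were 0.65 (SE 0.07, edgeR adjusted p = 3.79e-10) in U2OS and 0.81 (SE 0.07, edgeR adjusted p = 5.88e-11) in U2OS-AsiSI.

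The 3 stress effectors rose in both lines, and among them were the members with the largest responses. CHAC1 (chr15:40952962-40956512, plus strand) encodes an enzyme that degrades glutathione. In U2OS it had 161, 193 and 149 reads under siCtrl and 399, 462 and 420 under siINTS11. In U2OS-AsiSI it had 186, 230 and 187 under siCtrl and 446, 353 and 486 under siINTS11. The lowest siINTS11 library was far above the highest siCtrl library in each line. Scaled levels went from 5.53 ± 0.31 to 13.5 ± 1.53 CPM (SD, n = 3) in U2OS and from 6.78 ± 0.45 to 15.9 ± 0.624 in U2OS-AsiSI. The log2 fold changes were 1.26 (SE 0.09, edgeR adjusted p = 5.2e-16) and 1.24 (SE 0.08, edgeR adjusted p = 2.07e-14), and 9.62% and 9.73% of the genes tested rose at least as far as 1 on the log2 scale.

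DDIT4 (chr10:72273924-72276036, plus strand), whose protein REDD1 inhibits the growth kinase mTORC1, went from 213, 242 and 178 to 441, 475 and 407 reads in U2OS. In U2OS-AsiSI it went from 258, 239 and 256 to 477, 393 and 494 reads. Neither pair of groups overlapped, and the level about doubled in each: the log2 fold changes were 0.97 (SE 0.09, edgeR adjusted p = 5.56e-13) and 1.00 (SE 0.08, edgeR adjusted p = 2.18e-12). TRIB3 (chr20:362835-397559, plus strand) encodes a pseudokinase that restrains ATF4 and CHOP activity. It had 630, 743 and 643 reads under siCtrl and 1080, 1047 and 1038 under siINTS11 in U2OS. In U2OS-AsiSI it had 859, 881 and 855 under siCtrl and 1207, 964 and 1200 under siINTS11. The groups did not overlap, with log2 fold changes of 0.56 (SE 0.06, edgeR adjusted p = 7.2e-12) and 0.52 (SE 0.05, edgeR adjusted p = 9.31e-10). The TRIB3 span in the table begins 18.5 kb before the nearest RefSeq start, so part of its reads may lie outside the RefSeq gene.

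The 2 members of serine synthesis both rose in U2OS, and PHGDH also rose in U2OS-AsiSI. PHGDH (chr1:119648411-119744226, plus strand), the enzyme of the first step from glycolysis to serine, went from 2857, 3814 and 2814 to 4555, 4418 and 4169 reads in U2OS. In U2OS-AsiSI its raw reads (2974, 3206 and 2639 against 3761, 3047 and 3736) overlapped, and its scaled levels, 99.3 ± 2.45 and 131.0 ± 3.12 CPM (SD, n = 3), did not. The log2 fold changes were 0.39 (SE 0.04, edgeR adjusted p = 6.29e-11) and 0.41 (SE 0.04, edgeR adjusted p = 2.8e-09). The table's span of PHGDH begins 63.5 kb before its RefSeq start.

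PSAT1 (chr9:78297125-78330093, plus strand), the transaminase of the second step, had 1335, 1871 and 1405 reads under siCtrl and 1979, 1886 and 1907 under siINTS11 in U2OS. In U2OS-AsiSI it had 1572, 1742 and 1434 under siCtrl and 1619, 1248 and 1579 under siINTS11. The U2OS groups were apart by a narrow margin, and the U2OS-AsiSI groups overlapped raw and scaled. The log2 fold change was 0.24 in U2OS (SE 0.04, edgeR adjusted p = 8.39e-06). It was 0.05 in U2OS-AsiSI (SE 0.05, 95% interval -0.04 to 0.14, edgeR adjusted p = 0.347), where it passed the threshold with library totals alone (0.24, edgeR adjusted p = 5.06e-05) and with genes limited to a mean of 50 reads (0.10, edgeR adjusted p = 0.0486).

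ASNS (chr7:97851677-97872542, minus strand), which makes asparagine and is a standard readout of ATF4, could not be measured. It was listed with 0 to 2 reads per library, 0 and 3 in sum under siCtrl and siINTS11 in U2OS and 1 and 0 in U2OS-AsiSI. All but 11 of its 20866 bases lie inside AC079781.5, a 121298-base transcript annotated on the same strand at chr7:97851688-97972985, and how reads in both genes were treated is not given in the sources used here. AC079781.5 was listed with 199 to 323 reads per library and is no stand-in for ASNS. Of 947 protein-coding genes covered to at least 99% on their own strand, 7.5% reached a mean of 1 read, against 63.8% of 928 covered only on the opposite strand and 76.9% of 6597 with no overlap. The low count of ASNS is therefore no measure of its transcription.

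Per length, counted over bases that no other gene on the strand shares, ATF4 led in every group, at 14.4 ± 1.36 CPM per kb (SD, n = 3) in U2OS siCtrl and 17.6 ± 1.97 in U2OS-AsiSI siINTS11. CEBPB and DDIT4 came next in every group, at 5.95 ± 0.375 and 3.29 ± 0.354 CPM per kb in U2OS siCtrl. The levels of TRIB3, from 0.64 ± 0.0303 to 1.21 ± 0.0206 CPM per kb, were the lowest in each group. That place depends on the spans of the table, which for TRIB3 and PHGDH begin 18.5 and 63.5 kb before their RefSeq starts and so lower their levels per kb if few reads fall there. By group mean, CHAC1 lay below ATF5 and DDIT3 under siCtrl in both lines and above both of them under siINTS11, at 3.81 ± 0.431 CPM per kb in U2OS and 4.48 ± 0.176 in U2OS-AsiSI. Libraries of neighbours in this order overlapped for ATF5 with DDIT3 and CHAC1 with PSAT1 in U2OS siCtrl. They also overlapped for ATF5 with DDIT3 in both U2OS-AsiSI groups and for CHAC1 with DDIT3 in U2OS siINTS11. All other neighbours were apart. Overlap was checked between neighbours alone, so CHAC1 and ATF5 were not compared by library in U2OS siINTS11.

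Between the control groups, 5 of the 9 members were higher in U2OS-AsiSI than in U2OS and the other 4 were not called. Of the 19935 genes tested, 17.8% were higher and 34.9% were called in either direction, and the median of the 9 was 0.26 against 0.01. Among protein-coding genes under 10 kb the share that was higher was 40.7%, and among genes above 0.1 reads per base it was 39.8%, against 17.3% among protein-coding genes of 10 kb or more. TRIB3 differed most, at 22.2 ± 1.05 CPM in U2OS and 29.3 ± 1.83 in U2OS-AsiSI (SD, n = 3), a log2 difference of 0.41 (SE 0.06, edgeR adjusted p = 4.37e-06), and its libraries were apart both scaled, as for 23.0% of all genes in that direction, and raw, as for 6.47%. CHAC1 (0.30), DDIT4 (0.29), CEBPB (0.29) and ATF5 (0.26) were the others called, with edgeR adjusted p from 0.00716 for CEBPB to 0.0212 for DDIT4. Their raw reads overlapped between the lines, and for DDIT4 the scaled levels did too. ATF4 (0.06), DDIT3 (0.15), PSAT1 (0.09) and PHGDH (-0.06) were not called, with edgeR adjusted p from 0.166 to 0.446.

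These control differences depended on single libraries and on the settings. The number of members called fell to 3 without U2OS siCtrl replicate 2 and to 2 without U2OS siCtrl replicate 3 or U2OS-AsiSI siCtrl replicate 3. ATF5 was not called without U2OS siCtrl replicate 3 (0.17) or U2OS-AsiSI siCtrl replicate 3 (0.23), and CEBPB without the latter (0.20). CHAC1 was not called without U2OS siCtrl replicate 2 (0.30) or 3 (0.28) or U2OS-AsiSI siCtrl replicate 2 (0.25), nor when all libraries were thinned to the smallest total (0.19, edgeR adjusted p = 0.234) or with DESeq2 (0.29, adjusted p = 0.0683). DDIT4 was not called without U2OS siCtrl replicate 2 (0.29) or 3 (0.24) or U2OS-AsiSI siCtrl replicate 1 (0.27) or 3 (0.23), nor with DESeq2 (adjusted p = 0.0614). TRIB3 was called without any 1 of the 6 libraries.

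Under siINTS11, 7 of the 9 members were higher in U2OS-AsiSI than in U2OS, with a median of 0.32 against 0.01. Of the 20802 genes tested there, 22.2% were higher and 43.6% were called in either direction, and the share that was higher was 54.4% among protein-coding genes under 10 kb, 19.2% among longer ones and 61.2% above 0.1 reads per base. CEBPB (log2 difference 0.45, edgeR adjusted p = 3.39e-07), TRIB3 (0.37, edgeR adjusted p = 7.36e-08) and ATF5 (0.35, edgeR adjusted p = 2.28e-05) differed most. ATF4 (0.34), DDIT4 (0.32), CHAC1 (0.28) and DDIT3 (0.21) were also called. The call of DDIT3 was lost without any 1 of the U2OS siINTS11 libraries or of replicates 2 and 3 of U2OS-AsiSI siINTS11 (0.17 to 0.22), and with no count filter or DESeq2 (0.20 with each). PSAT1 (-0.10, edgeR adjusted p = 0.059) and PHGDH (-0.04) were not called, and PSAT1 passed with median-of-ratios size factors (-0.11, edgeR adjusted p = 0.0475) and without replicate 1 of U2OS-AsiSI siINTS11 (-0.12, edgeR adjusted p = 0.0443). The scaled levels of the 7 did not overlap between the lines, as for 23.0% of all genes in that direction, while their raw reads did (2.49% of genes were apart). The library totals of these groups did not overlap, and the part of depth was not tested. This comparison and the one between control groups share their libraries with the siINTS11 comparisons above.

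**Figure D3:**
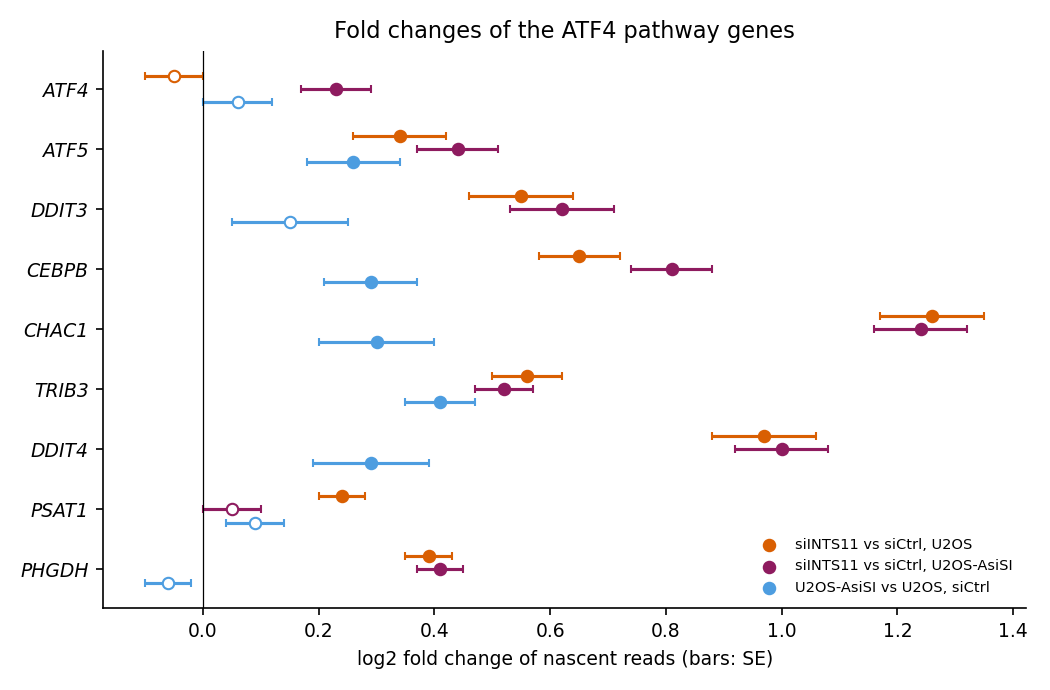
Log2 fold changes (x axis) with their SE (bars) of the 9 tested members for siINTS11 against siCtrl in U2OS and in U2OS-AsiSI, and for U2OS-AsiSI against U2OS under siCtrl. Filled points passed an edgeR adjusted p of 0.05 and open points did not: 8 members passed in each siINTS11 comparison and 5 between the control groups.

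Whether the siINTS11 effect itself differed between the lines was tested as an interaction over all 12 libraries. The median interaction over all genes tested was -0.05, below 0, and that of the 9 members was -0.01. PSAT1 was the 1 member called, with an effect lower in U2OS-AsiSI by 0.22 on the log2 scale (interaction -0.22, SE 0.06, edgeR adjusted p = 0.0375), among 3.87% of 21521 genes called in either direction, 3.1% called lower and 0.762% called higher. That call was lost in all 8 other analyses of the 12 libraries, for example with median-of-ratios size factors (-0.19, edgeR adjusted p = 0.122), and without any 1 of 9 of the 12 libraries (-0.16 to -0.23), and held only without U2OS siCtrl replicate 2, U2OS-AsiSI siCtrl replicate 3 or U2OS-AsiSI siINTS11 replicate 1. ATF4 had an interaction of 0.24 (SE 0.10, 95% interval 0.05 to 0.43) that was not called (edgeR adjusted p = 0.163), and that passed with no count filter (0.29, edgeR adjusted p = 0.0102) and without U2OS siCtrl replicate 2 (0.32, edgeR adjusted p = 0.0366). At an unadjusted p under 0.05, these 2 members passed. The other 7 lay between -0.07 (TRIB3, 95% interval -0.22 to 0.07) and 0.12 (CEBPB, 95% interval -0.09 to 0.34), with edgeR adjusted p from 0.591 to 0.981. For CHAC1 the interval of the difference was -0.30 to 0.18 and for DDIT4 it was -0.25 to 0.23.

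Genes upstream of ATF4 did not move in 1 direction. Of 17 tested genes for eIF2 kinases and their regulators, eIF2, its exchange factor and its phosphatase, 6 rose and 5 fell in U2OS. In U2OS-AsiSI 4 rose and 4 fell, and the medians in the 2 lines were 0.01 and -0.03. Among all genes tested, 34.5% and 35.4% rose and 32.4% and 32.6% fell. EIF2AK3, which encodes the endoplasmic reticulum kinase PERK, fell from 190.0 ± 8.29 to 96.0 ± 2.81 CPM (SD, n = 3) in U2OS and from 149.0 ± 6.39 to 81.1 ± 5.6 CPM in U2OS-AsiSI. Its log2 fold changes were -1.01 (edgeR adjusted p = 1.84e-24) and -0.87 (edgeR adjusted p = 1.26e-15), and its libraries did not overlap, raw or scaled. The share of all genes that were lower without overlap was not counted. PPP1R15A, the stress-induced phosphatase subunit that reverses eIF2 phosphorylation, rose by 0.17 in U2OS and 0.39 in U2OS-AsiSI; without U2OS siINTS11 replicate 2 the U2OS value was 0.13 (edgeR adjusted p = 0.055). EIF2B3, a subunit of the exchange factor eIF2B, fell by 0.24 and 0.32 on the log2 scale. With library totals alone EIF2B3 was not called in U2OS (-0.04), and 12 of the 17 rose in U2OS and 10 in U2OS-AsiSI. The medians of the 17 were then 0.21 and 0.16, against 0.22 over all genes tested in each line. Of those genes, 10968 of 20687 rose in U2OS and 10550 of 20441 in U2OS-AsiSI.

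Of the related stress lists, the amino acid transporters had the highest medians. Of 9 tested, 6 rose in each line, while 2 fell in U2OS and 1 in U2OS-AsiSI, with medians of 0.31 and 0.35. Over all genes tested, 34.5% and 35.4% rose and 32.4% and 32.6% fell. SLC7A11, the cystine importer that feeds glutathione synthesis, rose from 64.9 ± 2.22 to 154.0 ± 2.85 CPM (SD, n = 3) in U2OS and from 66.9 ± 1.71 to 138.0 ± 5.41 CPM in U2OS-AsiSI. Its log2 fold changes were 1.22 (edgeR adjusted p = 2.2e-27) and 1.05 (edgeR adjusted p = 2.22e-18). SLC7A5, the light chain of a leucine transporter, rose by 0.31 and 0.45, and the glycine transporter SLC6A9 rose by 0.52 and 0.50. The 10 other tested genes of amino acid and folate metabolism were split, with 4 higher and 3 lower in U2OS and 3 higher and 2 lower in U2OS-AsiSI. Among them PSPH, which completes serine synthesis after PSAT1, rose by 0.33 and 0.19. ALDH1L2, a mitochondrial folate enzyme, fell by 0.53 and 0.67 on the log2 scale, and ALDH18A1, which starts proline synthesis, fell by 0.22 in both lines, a call lost with library totals alone (-0.02 and -0.03).

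The aminoacyl-tRNA synthetase genes, which charge tRNAs, had medians near 0, and their promoters held the core in the largest share of these lists. Of 12 tested, 2 rose and 2 fell in U2OS, and 1 rose and 2 fell in U2OS-AsiSI, with medians of 0.03 and 0.01. All genes tested had medians of 0.02 and 0.03, with 34.5% and 35.4% rising and 32.4% and 32.6% falling. SARS1 fell by 0.28 and 0.40 and EPRS1 by 0.25 and 0.28 on the log2 scale, and with library totals alone neither was called in U2OS (-0.08 and -0.05). NARS1 rose by 0.22 in U2OS and 0.13 in U2OS-AsiSI. The latter call (edgeR adjusted p = 0.0178) was lost without replicate 2 of siCtrl (0.13) or replicate 1 (0.11) or 2 (0.12) of siINTS11, and also with median-of-ratios size factors (0.11), no count filter (0.12), DESeq2 (0.11) or thinning (0.10). With library totals alone 10 of the 12 were called higher in each line. Their medians were then 0.23 in U2OS and 0.21 in U2OS-AsiSI, against 0.22 over all genes tested in each line. XPOT, a tRNA exportin gene kept on the same list, rose by 0.18 in U2OS and was not called in U2OS-AsiSI (0.10, edgeR adjusted p = 0.0536).

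Of 17 other known targets of ATF4 or CHOP, 8 rose and 3 fell in U2OS and 10 rose and 3 fell in U2OS-AsiSI. Their medians were 0.09 and 0.17, against 0.02 and 0.03 over all genes tested, of which 34.5% and 35.4% rose and 32.4% and 32.6% fell. STC2, a secreted glycoprotein hormone gene, rose most among these 17 targets. It went from 13 to 19 reads per library to 136 to 148 in U2OS and from 16 to 29 reads to 99 to 129 in U2OS-AsiSI. Its log2 fold changes were 3.06 (SE 0.18, edgeR adjusted p = 3.15e-19) and 2.44 (SE 0.17, edgeR adjusted p = 1.11e-13), from a low base. TRIB1, a pseudokinase related to TRIB3, rose by 0.40 and 0.65, and JDP2, a bZIP repressor, rose by 0.33 and 0.48.

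The other 2 stress pathways went different ways. Of 18 genes of the IRE1 and ATF6 arms of the unfolded protein response, 13 fell and 1 rose in U2OS and 11 fell and 1 rose in U2OS-AsiSI, with medians of -0.30 and -0.22; of all genes tested 32.4% and 32.6% fell. Among them were ERN1, which encodes IRE1 itself (log2 fold changes of -0.53 and -0.50), DNAJC3, a co-chaperone of the endoplasmic reticulum (-0.70 and -0.67), and PDIA6, a disulfide isomerase (-0.41 and -0.36). In raw reads each of these 3 was lower in every siINTS11 library than in every siCtrl library of its line. The share of all genes that did so was not counted, and in U2OS-AsiSI the siINTS11 libraries were the smallest. With library totals alone the counts became 8 lower and 3 higher in U2OS and 6 lower and 5 higher in U2OS-AsiSI, with medians of -0.10 and -0.03 against 0.22 over all genes in each line. Of 10 tested heat shock chaperone genes, 5 rose and 1 fell in U2OS and 9 rose and 1 fell in U2OS-AsiSI, with medians of 0.10 and 0.22, where 34.5% and 35.4% of all genes tested rose. In U2OS 4 rose with median-of-ratios size factors and 9 with library totals alone. DNAJA1 rose by 0.62 and 0.58, HSP90AA1 by 0.26 and 0.33, and HSPH1 by 0.25 and 0.33.

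**Figure D4:**
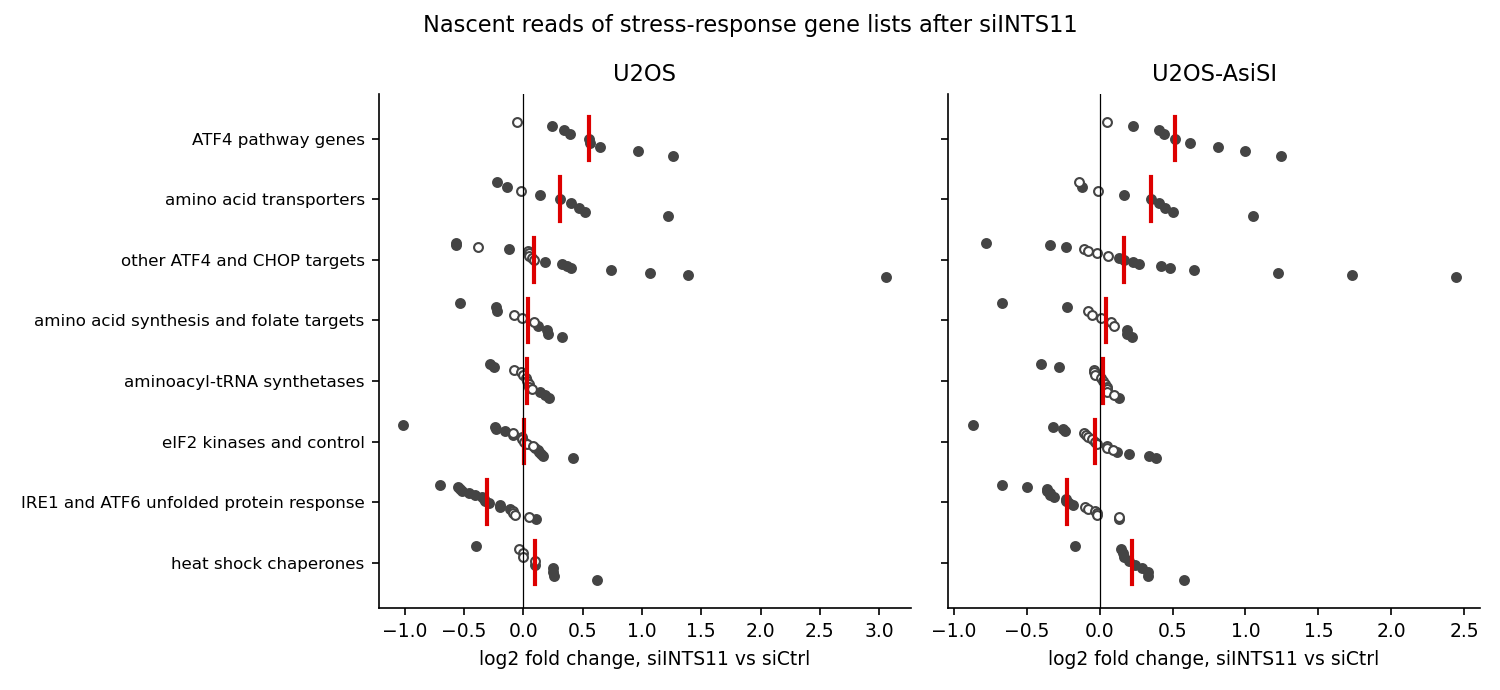
Log2 fold changes under siINTS11 (x axis) of each tested gene (points, filled where edgeR adjusted p was under 0.05) in 8 lists, in U2OS (left) and U2OS-AsiSI (right), with the list median as a bar. The medians of the ATF4 pathway genes are 0.55 and 0.52, those of the IRE1 and ATF6 genes -0.30 and -0.22, and those of the synthetase genes, plotted with XPOT, 0.03 and 0.02.

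The 5 protein-coding genes whose pattern over the 12 libraries was nearest to that of ATF4 were RPL13A, RPL3, RPLP0, RPS16 and RPL4, all of them genes for ribosomal proteins. The root mean square difference of their centred log2 CPM from that of ATF4 was 0.016 (RPL13A), 0.020 (RPL3), 0.020 (RPLP0), 0.021 (RPS16) and 0.029 (RPL4), where the median of 11213 genes with a mean of at least 100 reads was 0.24. Like ATF4, the first 4 were dense in reads, at 0.433 to 0.502 reads per base, while RPL4 was at 0.099. Their log2 fold changes under siINTS11 were -0.05 to -0.01 in U2OS, not called, and 0.18 to 0.26 in U2OS-AsiSI, called. In U2OS-AsiSI the calls of RPLP0 (0.12), RPS16 (0.12) and RPL4 (0.10) were lost without replicate 2 of siINTS11, where those of RPL13A (0.14) and RPL3 (0.16) held, as did that of ATF4 above. The libraries share their totals and scaling, so this likeness is a description and has no test.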

How the data were processed

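The authors deposited raw read counts per gene, whole numbers with the columns that featureCounts writes, per the file headers, over gene spans with introns. The submitters' processing notes name Trimmomatic 0.36, STAR 2.7, deepTools, featureCounts and hg38, with no order; strand setting, duplicate handling and aligner options are not given in the sources used here. Per the labels' protocols, libraries were directional and yeast RNA was added; it was not used here for scaling. Columns were matched to samples by title, and 0 count columns had no sample. Totals ran from 20704611 to 38065726 counts per library; replicate pairs differed by more than sampling noise (chi-square per degree of freedom 1.93 to 3.28). The reads carry no molecular identifiers and may repeat molecules, so errors cover only the spread between libraries.

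All genes past filterByExpr entered edgeR 4.0.16 under R 4.3.3 (TMM, robust glmQLFit, glmQLFTest, two-sided) on the 6 libraries compared, or all 12 for the interaction. Benjamini-Hochberg adjustment ran over all genes tested, with a threshold of 0.05. In simulated data put through the same fits, 1.8% to 8.3% of calls were false, depending on the comparison. That simulation changed far fewer genes than were called under siINTS11, so it cannot check scaling or error rates where most genes change. SE is the size of the log2 fold change divided by the root of F, and intervals are normal ones from the SE. Alternatives were other scalings and count filters, a replicate block, DESeq2 1.42.0, thinning, and leaving out each library. The members and lists were chosen with earlier results of these data known. XPOT was set apart from the synthetases, as no synthetase, after its values were seen. Named genes were all members, INTS11, up to 3 per list by smallest adjusted p in U2OS-AsiSI, the 5 nearest to ATF4, and list genes whose interaction passed. Further cell type markers, XPOT, AC079781.5 and the synthetase genes with a printed promoter stretch were named beyond that rule. Coordinates are the files' own. No sequence of a whole genome was used, and promoters are from RefSeq (GRCh38.p14), matched by symbol for 10 of 10 members.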

Additional observations from a re-analysis of the deposited data

Results flagged for a closer look

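The siINTS11 effect differed between the lines for 1 member and 5 genes of the related lists, by the edgeR interaction over all 12 libraries. PSAT1 had a smaller effect in U2OS-AsiSI (interaction -0.22, edgeR adjusted p = 0.0375), with log2 fold changes of 0.24 in U2OS and 0.05 in U2OS-AsiSI. BBC3, which encodes the cell death protein PUMA, had an interaction of -0.55 (edgeR adjusted p = 0.000153): it went from 20.9 ± 0.917 to 35.7 ± 2.82 CPM (SD, n = 3) in U2OS and from 37.7 ± 1.83 to 44.1 ± 1.33 CPM in U2OS-AsiSI. TRIB2, a pseudokinase gene, had an interaction of -0.31 (edgeR adjusted p = 0.0184), with log2 fold changes of 0.05 in U2OS, not called, and -0.23 in U2OS-AsiSI. VLDLR, a lipoprotein receptor gene, had an interaction of 0.34 (edgeR adjusted p = 0.0121), with 0.04 in U2OS, not called, and 0.42 in U2OS-AsiSI. EIF4EBP1, which encodes an inhibitor of cap-dependent translation, had an interaction of -0.24 (edgeR adjusted p = 0.0299), with 0.37 in U2OS and 0.17 in U2OS-AsiSI. RUNX2, the osteoblast transcription factor, had an interaction of -0.26 (edgeR adjusted p = 0.0213), with -0.84 in U2OS and -1.07 in U2OS-AsiSI. The U2OS-AsiSI siINTS11 libraries were the smallest of the 12, and 3.87% of all genes tested passed this interaction. The median interaction over all genes tested was -0.05. BBC3 was called in all 8 other analyses of the 12 libraries and without any 1 library. VLDLR was called in all 8, and was lost without U2OS siINTS11 replicate 3 (0.30). PSAT1 was called in 0 of the 8, EIF4EBP1 in 1 of 8 (-0.24 to -0.17), and RUNX2 (-0.26 to -0.19) and TRIB2 (-0.31 to -0.24) in 6 of 8. RUNX2 was lost with median-of-ratios size factors or a mean of at least 50 reads, and TRIB2 with library totals alone or a mean of at least 50 reads. Of the 12 analyses that each left out 1 library, TRIB2 was called in 7 (-0.37 to -0.22), RUNX2 in 5 (-0.31 to -0.21), EIF4EBP1 in 4 (-0.26 to -0.18) and PSAT1 in 3 (-0.26 to -0.16).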

How the results depend on the processing

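In both siINTS11 comparisons the number of members called stayed at 8 or 9 under all 14 alternatives, and 8 without any 1 library. Between lines under siINTS11 it ran from 6 to 8. Between control groups it was 5, with 6 under library totals alone, 4 thinned, 3 with DESeq2 and 2 to 5 without 1 library. For the interaction it was 1, and 0 under library totals, size factors by median of ratios, TMM from genes under 0.1 reads per base, a mean count of at least 50, DESeq2 or thinning, and 0 to 2 without 1 library. With no count filter it was also 1, but ATF4 (0.29, higher) in place of PSAT1. The cause was not tested. Over all genes 832 interactions were called (164 higher, 668 lower), against 447 (177 and 270) with median-of-ratios size factors, 423 with DESeq2, 531 thinned and 286 to 946 without 1 library; the split was 379 and 291 with no count filter and 441 and 217 with genes limited to a mean of 50 reads.

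The replicate numbers did not pair the libraries: correlations of same-numbered deviations ran from -0.25 to 0.35, over 0.1 in all 3 pairs of no comparison, and not every library correlated best with its own number. With a replicate block the members called were 8, 8, 5, 7 and, for the interaction, 0, and 531 interactions were called over all genes.

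The values that changed sign were all ones that had not been called. With library totals alone, values in U2OS were 0.15 for ATF4, 0.17 for RPL13A, 0.18 for RPL3, 0.15 for RPLP0, 0.17 for RPS16 and 0.19 for RPL4, all called. INTS11 in U2OS-AsiSI was 0.06, and PHGDH between lines under siINTS11 was 0.01. With a mean count of at least 50, RPL13A (0.01), RPL3 (0.02), RPS16 (0.01) and RPL4 (0.03) turned in U2OS, and RPL4 was 0.00 with TMM from genes under 0.1 reads per base. Without 1 library, U2OS values were -0.11 to 0.02 for ATF4, -0.09 to 0.04 for RPL13A, -0.07 to 0.05 for RPL3, -0.05 to 0.05 for RPL4, -0.10 to 0.02 for RPLP0 and -0.08 to 0.03 for RPS16, and ATF4 between control groups was -0.01 to 0.13. Interactions turned for DDIT4 (0.02 with median-of-ratios size factors, library totals or DESeq2, 0.00 with TMM from genes under 0.1 reads per base, 0.04 with no count filter, 0.06 at a mean count of at least 50, -0.09 to 0.11 without 1 library). They turned for PHGDH (0.02, 0.01 and 0.02 with median-of-ratios, totals and DESeq2, 0.03 with no count filter, 0.06 at a mean count of at least 50, -0.04 to 0.07 without 1 library). CHAC1 gave 0.01 at a mean count of at least 50, 0.07 thinned and -0.13 to 0.03 without 1 library, DDIT3 gave -0.02 thinned and -0.01 to 0.12 without 1 library, and ATF5 gave 0.00 to 0.21 without 1 library.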
